A study of Homo sapiens with 4 samples.

Results

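The genes described here are 36 that encode the enzymes and regulators of cholesterol and fatty acid synthesis, out of 15037 genes with counts in A549, an established cell line of epithelial origin from a human lung carcinoma. They were taken from the count table by symbol: 18 enzymes of the sterol pathway, 5 regulators of the SREBP system or carriers of sterol, and 13 enzymes of fatty acid synthesis, elongation, desaturation and activation. All 36 were in the count table and passed the filter on low counts, as did 13497 genes in all. Polyadenylated RNA was sequenced from 2 libraries of cells with a knockdown of PSME4 (genotype PSME4 KD), a gene for an activator that caps the proteasome core, and from 2 control libraries (genotype RFP KD, here control KD). All 4 came from A549 cells grown in DMEM, with no further treatment given in the labels. The labels name neither the knockdown reagent nor separate cultures for the libraries of a group, so p-values reflect the spread between these libraries alone, which may be technical.

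Cells make cholesterol from acetyl-CoA through mevalonate, squalene and lanosterol, and fatty acids from the same precursor through malonyl-CoA. The transcription factors SREBF1 and SREBF2 switch on most of the genes of both routes. Held in the endoplasmic reticulum by SCAP and the INSIG proteins when sterol is plentiful, they are carried to the Golgi, cut and released to the nucleus when sterol runs low. Rapidly dividing carcinoma cells use both products for membranes.

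Depth was 11766371 and 11769392 counts in control KD 1 and 2, and 15208588 and 14845701 in PSME4 KD 1 and 2, of which the 36 genes took between 0.571% and 0.676%. Levels are given as CPM, counts scaled to library size by TMM, and pairs of values follow the order of libraries 1 and 2. PSME4 itself had 158 and 180 CPM in the control KD libraries and 75.3 and 85.1 CPM under PSME4 KD (log2 fold change −1.08, SE 0.20, edgeR adjusted p = 0.000855). Of 5 epithelial markers, the keratins KRT8 and KRT18 and the cadherin CDH1 were present in every library, KRT8 at 309 to 354 CPM. EPCAM and KRT19 were low, at 5.42 to 7.88 and 1.71 to 3.78 CPM. None of the 5 had an edgeR adjusted p under 0.05. Of 6 alveolar type II markers SFTPA1, SFTPB, SFTPC and NKX2-1 were not in the table. ABCA3 had 8.91 and 5.93 CPM in control KD and 10.6 and 10.4 CPM in PSME4 KD. Its log2 fold change was 0.50 (SE 0.28, edgeR adjusted p = 0.25). LAMP3, at 0.26 to 0.60 CPM, was too low to be tested. Of 10 markers of leukocytes, endothelium and fibroblasts 7 were not in it, and the other 3 (CD68, CD14 and COL1A1) summed to 39.9 to 44.5 CPM in control KD and 56.6 to 58.7 CPM in PSME4 KD, with COL1A1 higher (log2 fold change 0.73, SE 0.24, edgeR adjusted p = 0.0479). The part of these markers in the values below was not tested. In bulk RNA, fewer expressing cells and less RNA per cell cannot be told apart. Fold changes compare PSME4 KD with control KD, 2 libraries against 2, and adjusted p-values come from the quasi-likelihood test of edgeR with Benjamini-Hochberg adjustment over all 13497 tested genes.

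The promoters of 3 of the genes that fell in PSME4 KD are shown because SREBP target genes are known by short elements near their start, together with that of SREBF2, the only 1 of the 32 promoters found that held an exact sterol regulatory element in this window. Each runs 5′ to 3′ from 250 bases before to 50 bases after the transcription start given by RefSeq on GRCh38.p14. Capitals mark matches, on either strand, to the sterol regulatory element TCACNCCAC and to the NF-Y box CCAAT, which reads as ATTGG on the other strand.
HMGCS1 (chr5:43313363-43313662, minus strand): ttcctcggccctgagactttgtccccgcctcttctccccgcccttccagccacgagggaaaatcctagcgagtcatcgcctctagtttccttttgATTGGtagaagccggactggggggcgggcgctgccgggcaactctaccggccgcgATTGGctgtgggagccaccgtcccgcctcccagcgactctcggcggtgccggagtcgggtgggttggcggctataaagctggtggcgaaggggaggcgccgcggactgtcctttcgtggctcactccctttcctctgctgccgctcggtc
IDI1 (chr10:1056655-1056954, minus strand): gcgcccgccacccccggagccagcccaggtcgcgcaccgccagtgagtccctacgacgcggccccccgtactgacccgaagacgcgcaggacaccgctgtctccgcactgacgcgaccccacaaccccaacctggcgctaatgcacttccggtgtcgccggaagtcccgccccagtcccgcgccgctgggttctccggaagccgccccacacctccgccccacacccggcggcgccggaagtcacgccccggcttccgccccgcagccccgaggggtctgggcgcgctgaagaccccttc
ACSL4 (chrX:109733208-109733507, minus strand): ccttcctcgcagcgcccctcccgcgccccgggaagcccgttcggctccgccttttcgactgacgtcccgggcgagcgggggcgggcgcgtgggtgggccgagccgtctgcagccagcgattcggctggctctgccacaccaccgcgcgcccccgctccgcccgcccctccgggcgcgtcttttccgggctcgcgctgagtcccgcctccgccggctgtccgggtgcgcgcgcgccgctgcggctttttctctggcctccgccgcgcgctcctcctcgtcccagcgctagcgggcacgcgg
SREBF2 (chr22:41832855-41833154, plus strand): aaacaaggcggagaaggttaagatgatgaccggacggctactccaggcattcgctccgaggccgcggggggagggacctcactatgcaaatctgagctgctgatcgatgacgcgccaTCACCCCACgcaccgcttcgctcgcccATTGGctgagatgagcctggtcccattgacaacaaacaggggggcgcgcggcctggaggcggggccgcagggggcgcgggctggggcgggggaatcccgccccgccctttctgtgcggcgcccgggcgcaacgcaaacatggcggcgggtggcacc

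With the first transcribed base as position 0, the sterol element of SREBF2 began at −133 and its NF-Y box at −106, while HMGCS1 held NF-Y boxes at −155 and −100 and no exact sterol element. Neither motif occurred in the windows of IDI1 and ACSL4, which says only that these letters are not there. Entries were found for 32 of the 36 genes, and FDFT1, SQLE, ACAT2 and FASN had none. The sterol element was present in 1 of these 32 promoters (3.12%) and in 0.994% of the 11669 promoters of genes in the count table. CCAAT was present in 12 of 15 promoters of sterol enzymes (80%), in 6 of 12 of fatty acid enzymes (50%), in 3 of 5 of the regulators (60%) and in 36.7% of the promoters of genes in the table. The Sp1 box GGGCGG, whose first bases can be the last of an ATTGG, was in 14 of 15, 10 of 12 and 5 of 5, against 68.2% in the table. The E-box CACGTG was in 2 of 15, 1 of 12 and 2 of 5, against 9.86%. Motifs were searched on both strands, and a match describes the letters only.

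Across the whole set 4 of 36 genes fell, none rose and 32 did not pass the test. The 4 were the sterol enzymes HMGCS1, IDI1 and SQLE and the acyl-CoA synthetase ACSL4. That is 11.1% of the members, beside 10.6% of all tested genes called in either direction, 4.56% higher and 6.00% lower. The share called in either direction was close to that of genes at large. The share called lower, which rests on 4 genes, was above the 6.00%. An unadjusted p under 0.05 in edgeR was reached by 11 members, 2 higher and 9 lower, where 26.2% of all tested genes reached it, 12.1% higher and 14.1% lower. DESeq2 and limma voom each called 5 members lower and none higher, and each called 10.3% of the genes for which it gave an adjusted p. Over all tested genes these calls were 490 higher and 639 lower in DESeq2, and 593 higher and 801 lower in limma voom. After correction for GC content, described below, 3 members fell and 9.30% of all tested genes were called, 555 higher and 700 lower. PSME4 KD and control KD libraries lay apart for 69.4% of the members, 10 higher and 15 lower in PSME4 KD, where 55.0% of all tested genes did not overlap, 26.7% higher and 28.4% lower. The median log2 fold change was −0.04 over the members and −0.0021 over all tested genes.

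**Figure D1:**
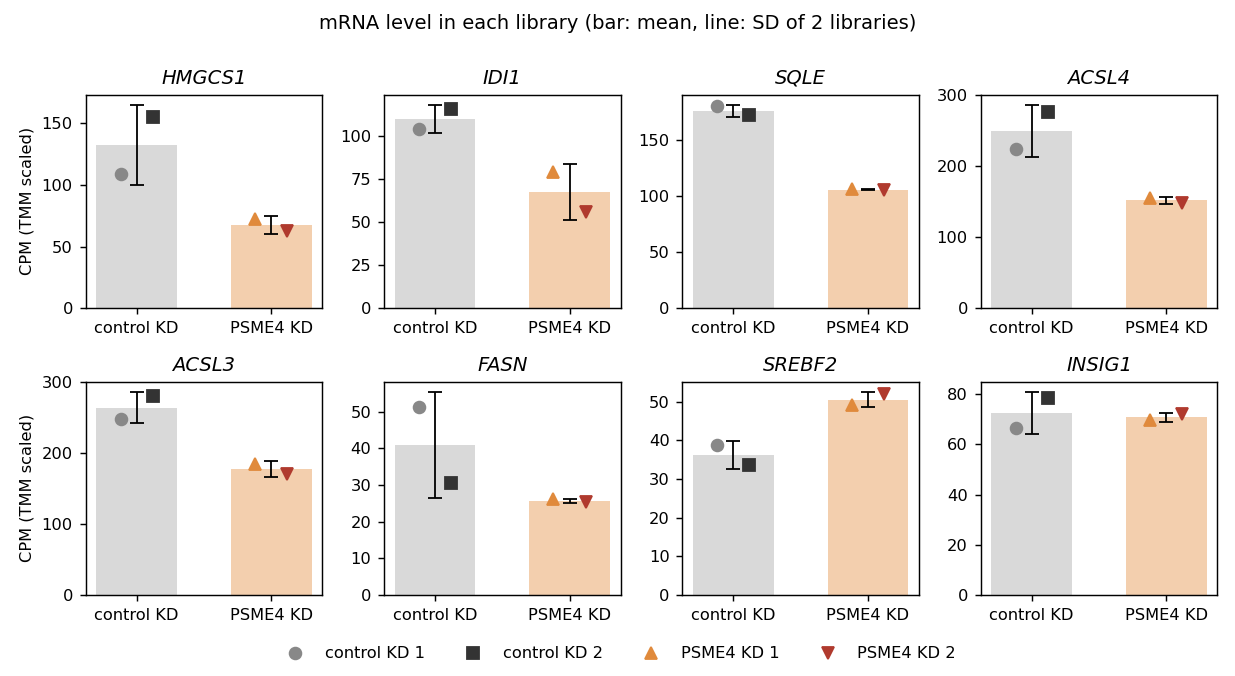
CPM of 8 genes in each library (points), with the mean (bar) and SD (line) of the 2 libraries of a group, on axes from 0. HMGCS1, IDI1, SQLE and ACSL4 passed the threshold with both PSME4 KD libraries below both control KD libraries, while the other 4 did not pass.

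HMGCS1, the cytosolic synthase that joins acetyl-CoA to acetoacetyl-CoA ahead of mevalonate, had the lowest fold change of the set. It had 109 and 156 CPM in the control KD libraries and 72.6 and 62.4 CPM under PSME4 KD. Both PSME4 KD libraries were below both controls, and the control libraries were far apart. The level was 1.96-fold lower in PSME4 KD (log2 fold change −0.97, SE 0.21, adjusted p = 0.00356, edgeR), and the gene lies on chromosome 5 at positions 43287470 to 43313412 of GRCh38. After each library was corrected for GC content the log2 fold change was −0.75 with an adjusted p of 0.00947, still past the threshold. Leaving out control KD 1 gave −1.21, control KD 2 −0.69, PSME4 KD 1 −1.08 and PSME4 KD 2 −0.83, and none of these edgeR fits passed (adjusted p 0.0522, 0.0988, 0.149 and 0.134). Those smaller fits called 53, 94, 43 and 281 genes of the whole table, in place of 1426.

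SQLE, the squalene monooxygenase that makes the first oxygenated sterol precursor and is a rate-limiting step of the pathway, fell from 180 and 172 CPM in the control KD libraries to 106 and 105 CPM under PSME4 KD. The libraries of each group lay close together and the groups did not overlap. The level was 1.67-fold lower (log2 fold change −0.74, SE 0.19, adjusted p = 0.0144, edgeR). GC correction left it at −0.72 (adjusted p = 0.0102), and without any 1 library it lay between −0.76 and −0.70, though past the threshold in no such fit (adjusted p 0.103 without control KD 1, 0.0805 without control KD 2, and 0.229 and 0.247 with PSME4 KD 1 or 2 left out). The gene is on chromosome 8 at positions 124998505 to 125022283, where 477 tested genes had a median log2 fold change of −0.355, with 6 higher and 99 lower. FDFT1, the squalene synthase just upstream in the pathway, is on the same chromosome and had 204 and 213 CPM in the controls and 194 and 187 CPM under PSME4 KD (log2 fold change −0.14, SE 0.19, adjusted p = 0.698, edgeR). The part of the chromosome in the SQLE value was not tested.

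IDI1, the isomerase that interconverts the isoprenoid units, had 104 and 116 CPM in the controls and 79.2 and 56.2 CPM under PSME4 KD. Both PSME4 KD libraries were below the controls, with PSME4 KD 2 the lower. It was 1.63-fold lower (log2 fold change −0.70, SE 0.21, adjusted p = 0.0283, edgeR) and did not pass after GC correction (−0.52, adjusted p = 0.0678). Leaving out control KD 1 gave −0.78, control KD 2 −0.62, PSME4 KD 1 −0.97 and PSME4 KD 2 −0.45, and it passed in none of these edgeR fits (adjusted p 0.122, 0.173, 0.154 and 0.581). The gene spans positions 1039152 to 1056704 of chromosome 10, where RefSeq also places IDI2-AS1 and WDR37.

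The other mevalonate steps did not pass. The kinase MVK was at 2.86 and 1.89 CPM in control KD and 2.04 and 3.74 in PSME4 KD, the kinase PMVK at 7.61 and 6.28 CPM and then 9.72 and 5.18, and the decarboxylase MVD at 3.12 and 1.72 CPM and then 3.88 and 2.56. For these low genes the libraries of the groups overlapped, with 20 to 59 counts per library behind MVD, and their log2 fold changes were 0.28 (SE 0.39), 0.10 (SE 0.31) and 0.41 (SE 0.38). FDPS, which builds farnesyl diphosphate, had 91.8 and 72.5 CPM in control KD and 106 and 108 CPM in PSME4 KD. Its groups did not overlap, yet the log2 fold change of 0.39 (SE 0.20) did not pass (adjusted p = 0.217, edgeR), and 8 pseudogenes bear its name in GENCODE 29, so its counts are uncertain. ACAT2, the cytosolic thiolase that supplies acetoacetyl-CoA, was at −0.23 (SE 0.20) and overlaps TCP1 and SOD2 in the annotation. Of 7 mevalonate genes 2 fell and 5 did not pass.

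LSS, the cyclase that closes lanosterol, had 12.7 and 8.94 CPM in control KD and 8.34 and 8.92 CPM in PSME4 KD, where PSME4 KD 2 lay only just under control KD 2. The log2 fold change was −0.33 (SE 0.27, adjusted p = 0.462, edgeR), with −0.05 when control KD 1 was left out and −0.55 when control KD 2 was. Together with FDFT1 and SQLE, all 3 genes between farnesyl diphosphate and lanosterol had both PSME4 KD libraries below both controls, and 1 of the 3 passed. Among all tested genes 28.4% had both PSME4 KD libraries below both controls.

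None of the 8 enzymes from lanosterol to cholesterol passed by edgeR, DESeq2 or limma voom, while 4 reached an unadjusted p under 0.05 in edgeR, 1 higher and 3 lower, beside 26.2% of all tested genes. The demethylase CYP51A1 had 155 and 175 CPM in control KD and 123 and 115 CPM in PSME4 KD, a log2 fold change of −0.47 (SE 0.19, adjusted p = 0.115, edgeR). MSMO1, the methyl sterol oxidase, had 144 and 138 CPM and then 103 and 99.1 CPM (−0.48, SE 0.19, adjusted p = 0.106), and the desaturase SC5D was at −0.50 (SE 0.21, adjusted p = 0.116). These 3 had PSME4 KD below control KD in every library. In the opposite direction stood EBP, the sterol isomerase, with 32.1 and 28.1 CPM in control KD and 44.7 and 39.8 CPM in PSME4 KD (0.49, SE 0.21, adjusted p = 0.132, edgeR). The reductases TM7SF2 and DHCR7 and the dehydrogenase NSDHL were also above control KD in both PSME4 KD libraries, at 0.44 (SE 0.29), 0.40 (SE 0.20) and 0.23 (SE 0.22), and the reductase HSD17B7 was at −0.27 (SE 0.23) with overlapping libraries. After GC correction CYP51A1, MSMO1 and SC5D were at −0.30, −0.22 and −0.26 and EBP and DHCR7 at 0.33 and 0.15.

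**Figure D2:**
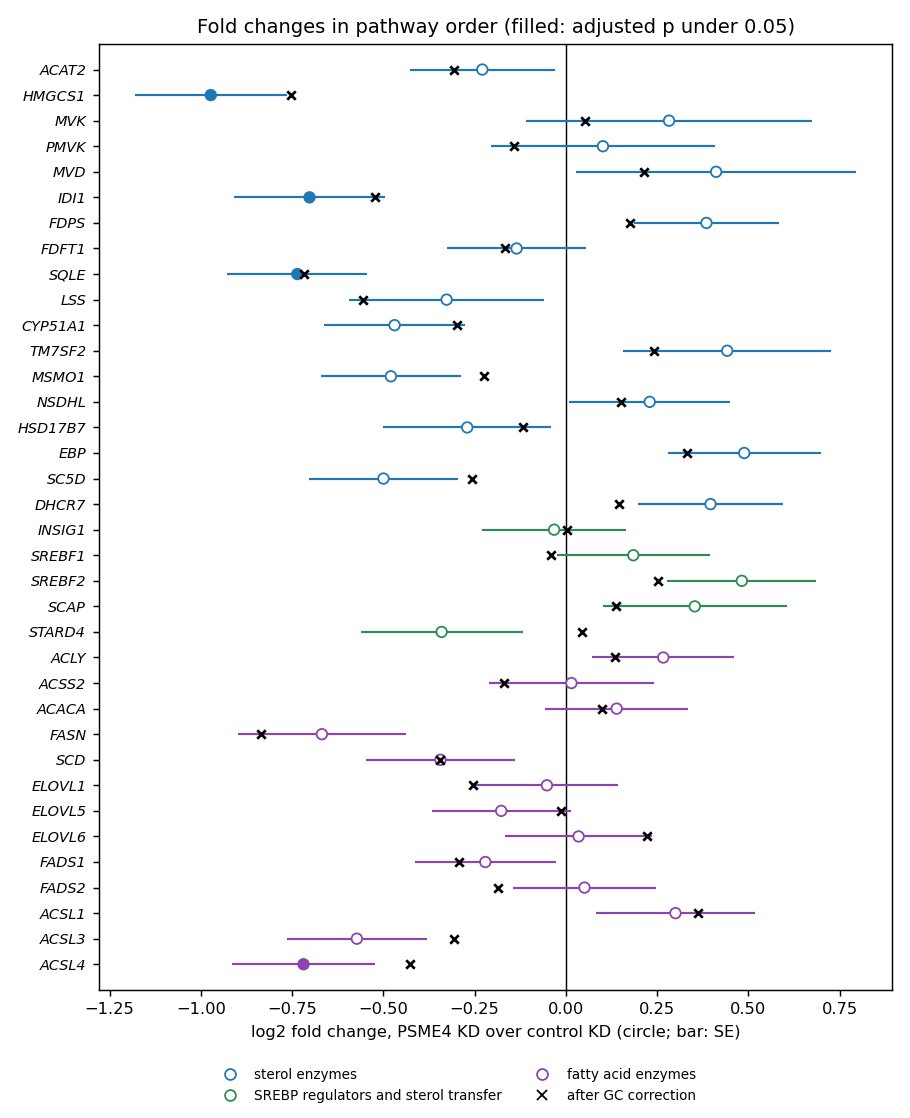
Log2 fold change of each of the 36 genes in pathway order (circles, with SE as bars; filled where the adjusted p was under 0.05), and after GC correction (crosses). The filled circles are HMGCS1, IDI1, SQLE and ACSL4, all left of 0, and the sterol enzymes spread from −0.97 to 0.49.

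Of the 5 regulators and carriers none passed by edgeR, DESeq2 or limma voom, while 1, SREBF2, reached an unadjusted p under 0.05 in edgeR, beside 26.2% of all tested genes. INSIG1, the endoplasmic reticulum anchor that is itself a sensitive SREBP target, had 66.5 and 78.4 CPM in the controls and 69.6 and 72.1 CPM under PSME4 KD. The PSME4 KD libraries lay between the controls, and the log2 fold change was −0.03 (SE 0.20, adjusted p = 0.942, edgeR), with a sign that changed between settings. SREBF2, the factor that mainly drives sterol genes, had 38.8 and 33.6 CPM in control KD and 49.1 and 52.0 CPM in PSME4 KD. Its groups did not overlap, and the log2 fold change of 0.48 (SE 0.20) did not pass (adjusted p = 0.127, edgeR) and was 0.25 after GC correction. SREBF1, the factor that mainly drives fatty acid genes, was at 34.2 and 32.1 CPM and then 35.1 and 40.2 CPM (0.18, SE 0.21, and −0.04 after GC correction). SCAP, the escort of both, had 11.9 and 9.03 CPM in control KD and 13.2 and 13.6 CPM in PSME4 KD (0.35, SE 0.25). It was 0.14 after GC correction, with 0.57 when control KD 1 was left out and 0.17 when control KD 2 was. STARD4, a sterol carrier, differed more between the controls than the other 4, at 41.1 and 63.7 CPM, with 46.8 and 35.96 CPM in PSME4 KD. Its log2 fold change was −0.34 (SE 0.22), with −0.62 when control KD 1 was left out and 0.017 when control KD 2 was.

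Of the 13 fatty acid enzymes 1 fell, none rose and 12 did not pass. An unadjusted p under 0.05 in edgeR was reached by 3, all lower. Of all tested genes 26.2% reached it, 12.1% higher and 14.1% lower. ACSL4, an acyl-CoA synthetase that prefers polyunsaturated chains, had 224 and 276 CPM in the controls and 155 and 149 CPM under PSME4 KD. The PSME4 KD libraries lay close together and well below both controls. The level was 1.65-fold lower (log2 fold change −0.72, SE 0.19, adjusted p = 0.0184, edgeR), at positions 109641335 to 109733257 of chromosome X. It did not pass after GC correction (−0.43, adjusted p = 0.108). With 1 library left out it lay between −0.86 and −0.55 and passed in no edgeR fit (adjusted p 0.0864 and 0.130 with control KD 1 or 2 left out, and 0.234 and 0.292 with PSME4 KD 1 or 2 left out).

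ACSL3, the synthetase of lipid droplets and the endoplasmic reticulum, had 248 and 279 CPM in control KD and 185 and 170 CPM in PSME4 KD. The log2 fold change of −0.57 (SE 0.19) missed the threshold in edgeR (adjusted p = 0.0528) and passed in DESeq2 (adjusted p = 0.0356) and limma voom (adjusted p = 0.0494), and it was −0.31 after GC correction (adjusted p = 0.257, edgeR). ACSL1, the third synthetase of the set, was above control KD in both PSME4 KD libraries (0.30, SE 0.22, adjusted p = 0.402, edgeR).

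FASN, the synthase that builds palmitate, had 51.2 CPM in control KD 1, 30.7 CPM in control KD 2, and 26.1 and 25.4 CPM in PSME4 KD 1 and 2. Its groups did not overlap, but control KD 1 stood apart from the other 3 libraries. The log2 fold change was −0.67 (SE 0.23, adjusted p = 0.0605, edgeR), with −0.25 when control KD 1 was left out and −0.98 when control KD 2 was. After GC correction it passed, at −0.83 with an edgeR adjusted p of 0.00754. FASN has the highest GC content of the set (65.3%).

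The other enzymes that supply or build the chain did not pass. ACLY, which cuts citrate to acetyl-CoA, had 646 and 734 CPM in control KD and 844 and 816 CPM in PSME4 KD, without overlap (0.27, SE 0.19, adjusted p = 0.4003, edgeR). The acetyl-CoA carboxylase ACACA had 146 and 130 CPM and then 137 and 166 CPM (0.14, SE 0.20), and the acetyl-CoA synthetase ACSS2 was at 0.02 (SE 0.23), both with overlapping libraries. SCD, the desaturase that makes oleate, had the highest level per kb of the 36 and stood at 2564 and 2141 CPM in control KD and 1702 and 2007 CPM in PSME4 KD. Both PSME4 KD libraries were below the controls, and the log2 fold change of −0.34 (SE 0.20) did not pass (adjusted p = 0.287, edgeR). Of the elongases, ELOVL5 was at −0.18 (SE 0.19), ELOVL1 at −0.05 (SE 0.20) and ELOVL6 at 0.03 (SE 0.20). The desaturases of polyunsaturated chains, FADS1 and FADS2, neighbours that overlap in the annotation, were at −0.22 (SE 0.19) and 0.05 (SE 0.20).

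Per transcript length, levels spanned a wide range. In control KD the mean was 439 CPM per kb for SCD, 159 for ACLY, 126 for ELOVL5 and 112 for FADS1, all of the fatty acid arm. The highest sterol enzymes were FDFT1 with 78.5, MSMO1 with 62.1 and SQLE with 59.4 CPM per kb. FASN had 4.78 CPM per kb, well under ACACA with 13.8. The lowest were MVK with 0.578, MVD with 1.03 and LSS with 2.19 CPM per kb. These levels were not corrected for GC content, and its part in the order of the genes was not tested. In PSME4 KD SQLE was at 35.7, HMGCS1 at 19.3 and ACSL4 at 28.5 CPM per kb, from 37.8 for HMGCS1 and 46.8 for ACSL4 in control KD.

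**Figure D3:**
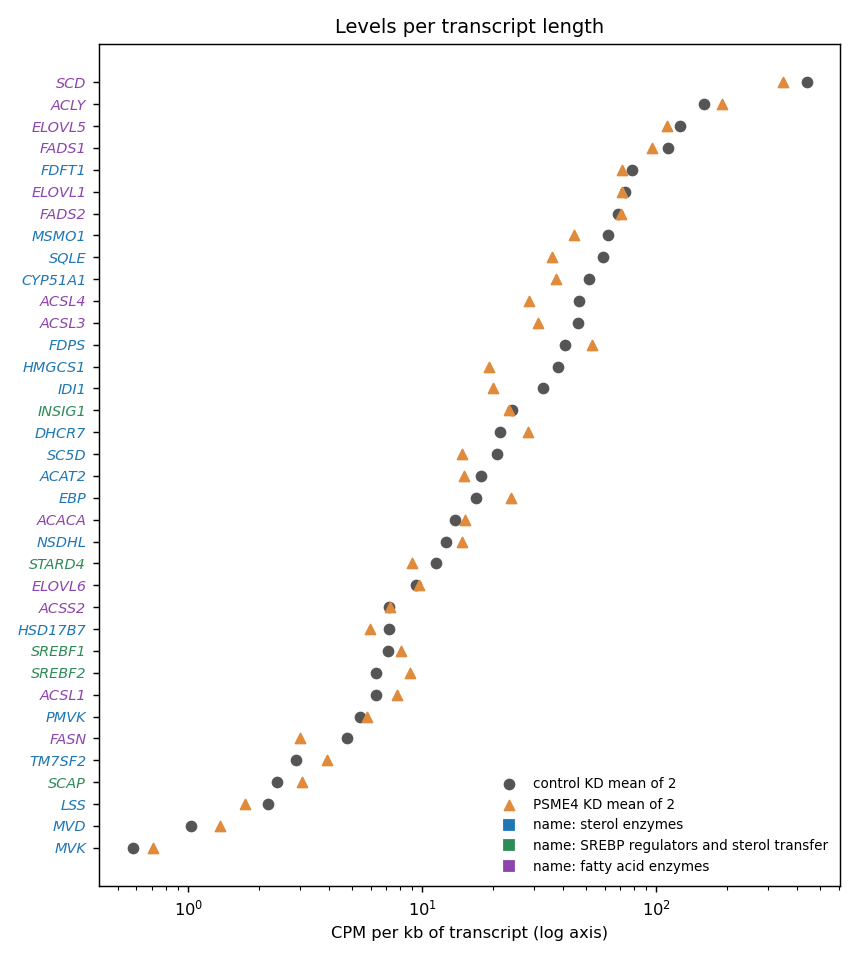
Mean CPM per kb of the longest GENCODE 29 transcript in control KD (circles) and PSME4 KD (triangles) for each gene, on a log axis, with names coloured by list. Levels run from 0.578 for MVK to 439 for SCD in control KD, and fatty acid enzymes hold the top places.

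The 2 arms were set side by side by their counts and medians, which are descriptions, since genes of a pathway are not replicates. Of 18 sterol enzymes 3 fell and 15 did not pass (16.7% called), with 9 below and 5 above control KD without overlap and a median log2 fold change of −0.18. Of 13 fatty acid enzymes 1 fell (7.69%), with 6 below and 2 above without overlap and a median of −0.05. Among all tested genes 10.6% were called, 4.56% higher and 6.00% lower. Libraries of the groups did not overlap for 55.0% of all tested genes, 26.7% higher and 28.4% lower. The summed sterol enzymes came to 1266 and 1304 CPM in the controls and to 1080 and 994 CPM under PSME4 KD. The summed fatty acid enzymes, led by SCD, came to 5422 and 4981 CPM in the controls and to 4407 and 4708 CPM under PSME4 KD. Both sums were lower in both PSME4 KD libraries. After GC correction the medians were −0.15 for the sterol arm and −0.185 for the fatty acid arm, so their order turned over with that step, and no difference between the arms was tested. With GC and length correction they were −0.098 and −0.19. Leaving out control KD 1 gave −0.099 for the sterol and −0.096 for the fatty acid enzymes, and leaving out control KD 2 gave −0.15 and −0.13. Leaving out PSME4 KD 1 gave −0.26 and 0.0007, and PSME4 KD 2 −0.15 and −0.077, so the gap between the arms nearly closed without either control library. The 5 regulators had a median of 0.18, and 0.04 after GC correction.

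**Figure D4:**
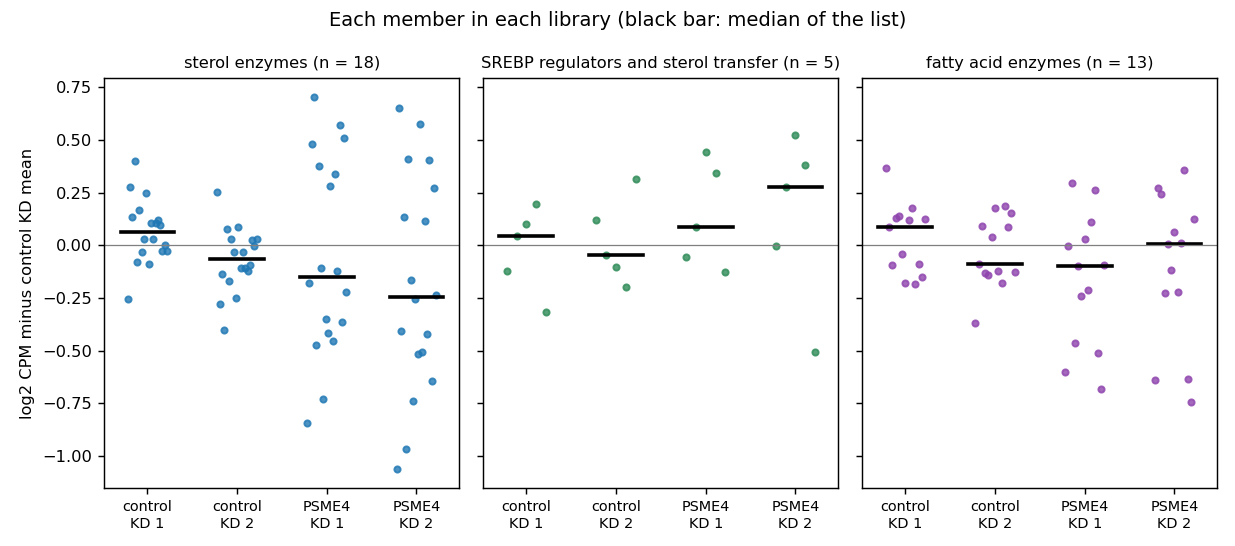
Log2 CPM of each gene minus its mean over the control KD libraries, in each of the 4 libraries (points), with the median of the list (black bar). In the PSME4 KD libraries the sterol enzymes spread to both sides of 0, with medians of −0.15 and −0.24, and the fatty acid enzymes had medians of −0.10 and 0.0058.

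Fold changes of the members followed the GC content of their transcripts, as those of other genes did. Across the 36 members, which are not independent replicates and share the same libraries, Spearman's rho between GC content and fold change was 0.64, and it was 0.40 across 12979 tested genes. The difference between the control KD libraries followed it too. For control KD 2 over control KD 1 the rho was −0.76 across the members and −0.49 across the 12979 tested genes. In the quartile of genes with the lowest GC content (30.2% to 41.7%) the median of all 3245 tested genes was −0.26, beside −0.50 for 5 sterol enzymes and −0.37 for 4 fatty acid enzymes. In the highest quartile (55.6% to 74.5%) it was 0.26 over all genes, 0.39 for 7 sterol enzymes and −0.31 for the 2 fatty acid enzymes FASN and FADS2. HMGCS1 and SQLE passed with and without the GC correction, while IDI1 and ACSL4 passed without it and not with it, and FASN with it and not without. The part of GC content in the fold change of any 1 gene was not tested beyond this correction.

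**Figure D5:**
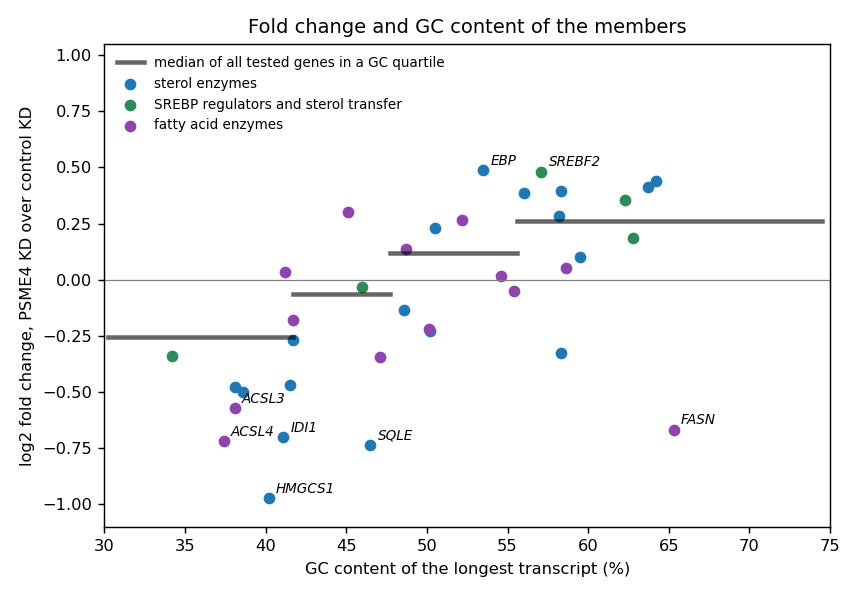
Log2 fold change of each gene against the GC content of its longest transcript in percent, coloured by list, with the median of all tested genes in each GC quartile as grey bars. Most points rise with the bars, from ACSL4 at 37.4% to the genes above 55%, while FASN at 65.3%, HMGCS1 at 40.2%, SQLE at 46.5% and LSS at 58.3% lie farthest below them.

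In either direction, 6.46% of the 15037 genes of the authors' deposited table had an adjusted p under 0.05. Of the 36 members 5 did, all lower in PSME4 KD. These were HMGCS1 (adjusted p = 0.00166), SQLE (0.0047), ACSL4 (0.011), IDI1 (0.039) and ACSL3 (0.0473) in the authors' deposited table. By the further adjustment in the authors' deposited table, by a method the headers do not name, HMGCS1 had the lowest value of the 36 at 0.161. The authors' own pass mark was no for each of the 36.

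Around these 36 genes, 88 others of lipid metabolism were listed in 6 groups, and 84 could be tested. In all 3 rose and 4 fell, a smaller share than the 10.6% of all tested genes called, 4.56% higher and 6.00% lower. Among 12 genes for the cutting, retention and degradation of SREBP and its partners none passed by edgeR, DESeq2 or limma voom, and none had an unadjusted p under 0.05. The protease genes MBTPS1 and MBTPS2 were at 0.10 (SE 0.20) and −0.21 (SE 0.21) and INSIG2 at −0.48 (SE 0.23). Of 11 genes of the isoprenoid branch 1 fell, the prenyltransferase subunit FNTA, from 138 and 148 CPM in control KD to 97.7 and 78.2 CPM in PSME4 KD (log2 fold change −0.70, SE 0.20, adjusted p = 0.0233, edgeR). The synthase GGPS1 missed the threshold in edgeR (−0.58, SE 0.20, adjusted p = 0.0525) and passed in DESeq2 (adjusted p = 0.0403). Of 14 genes of cholesterol uptake, esterification and efflux 1 rose and 1 fell. The sterol-sensing nuclear receptor NR1H3 went from 18.5 and 8.51 CPM to 26.6 and 24.3 CPM (0.91, SE 0.27), with 1.58 when control KD 1 was left out and 0.46 when control KD 2 was. It was higher in both PSME4 KD libraries, and the controls differed from each other. The lysosomal lipase LIPA went from 361 and 426 CPM to 239 and 270 CPM (−0.63, SE 0.19). The lipoprotein receptor SCARB1 missed the threshold in edgeR (0.58, SE 0.20, adjusted p = 0.0566) and passed in DESeq2 (adjusted p = 0.0408).

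Of 17 other fatty acid enzymes that could be tested 1 rose and 1 fell. The desaturase-like gene FADS3 was at 0.80 (SE 0.26), a call that DESeq2 did not make (adjusted p = 0.0621), and the elongation dehydratase HACD1 at −0.85 (SE 0.22). Of 15 genes of glycerolipid synthesis 1 fell, the acyltransferase AGPAT5 (−0.67, SE 0.20), which like FNTA lies on chromosome 8. Of 15 genes of fatty acid oxidation 1 rose, the nuclear receptor PPARA, which switches on that pathway. It had 10.8 and 11.95 CPM in control KD and 25.2 and 26.6 CPM in PSME4 KD, where the libraries of each group lay close together and far from the other group (log2 fold change 1.18, SE 0.23, adjusted p = 0.00184, edgeR). Its value was 1.17 after GC correction and between 1.11 and 1.26 with 1 library left out. It passed in 1 of those 4 fits, and the other 6 called genes in none. After GC correction HACD1 and PPARA still passed, FNTA (−0.46), LIPA (−0.50), NR1H3 (0.73), FADS3 (0.60) and AGPAT5 (−0.52) did not, and CPT2 (0.60) and GPAT4 (−0.59) did.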

How the data were processed

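The submitters' processing notes name hg38, STAR, cutadapt and DESeq2. Versions, annotation, counting tool and strand use: not given in the sources used here. RNA was taken up with a phenol reagent and libraries were made with a Lexogen SENSE kit after poly(A) selection, per the labels' protocols. The deposited table held raw counts per gene, which were used for all tests, deposited signal values (counts over a library's size factor, with a mean column), deposited log2 values on a regularised scale, which were not used, and the authors' log2 fold change with p-values. Its largest count per gene was at least 6, so low genes had been removed.

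Tests used edgeR 4.0.16 under R 4.3.3 (filterByExpr, TMM, glmQLFit and glmQLFTest, group as the only term, 2 residual degrees of freedom), with a threshold of 0.05 on Benjamini-Hochberg adjusted p-values. SEs were obtained from the log2 fold change and the F statistic, and SDs are over 2 libraries. Libraries of a group differed beyond counting noise (chi-square per degree of freedom 22.3 in control KD and 18.0 in PSME4 KD). GC content and length are of the longest GENCODE 29 transcript, which 96.2% of tested genes had, and the GC correction subtracts a lowess trend (span 0.4) from each library. Positions and promoters are from RefSeq on GRCh38.p14, the assembly of hg38. Of the 36 genes 24 overlap another RefSeq gene and 5 (FDPS, CYP51A1, HSD17B7, SCD and FADS2) have named pseudogenes, so reads may have been shared or dropped.

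The members and lists were chosen with earlier results of these data known. Values in each library are given for members past the threshold and for HMGCS1, SQLE, LSS, INSIG1, SREBF1, SREBF2, SCAP, FASN, ACACA, ACLY and SCD in any case, and for other members where they show a step of the pathway. Genes outside the set are named up to 4 per list where past the threshold, and MBTPS1, MBTPS2, INSIG2, GGPS1, SCARB1, CPT2 and GPAT4 were chosen after their values were seen. Alternatives were DESeq2's size factors, library size alone, DESeq2 1.42.0, limma 3.58.1 voom, other filters, a replicate block, each library left out, a threshold of 0.10, the GC correction, and, added after seeing the data, GC with length. The steps were tested on simulated data.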

Additional observations from a re-analysis of the deposited data

How the results depend on the processing

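With 1 library left out the count of called sterol enzymes was 0 in each fit, in place of 3, that of fatty acid enzymes was 0 in place of 1, and that of all genes 43 to 281 in place of 1426, fits with fewer samples. The 3 sterol calls held with DESeq2's size factors, library size alone, DESeq2, limma voom, either other filter and the replicate block, and 2 held after GC correction, where IDI1 passed only with the replicate block added (adjusted p = 0.0342, edgeR). The fatty acid count was 2 by DESeq2 and limma voom, and 3 with at least 50 counts in 2 libraries or a threshold of 0.10, which gave 2240 genes in all. The median of the fatty acid arm was −0.185 after GC correction, also with the replicate block, and −0.19 after GC and length correction, and −0.13 to 0.0007 with 1 library left out, with 0.0007 when PSME4 KD 1 was. Library size as the only scaling gave 853 genes higher and 764 lower, in place of 616 and 810. The replicate numbers did not pair the libraries (Pearson r = −0.04 between the deviations of same-numbered libraries across 8748 genes), and the replicate block changed no call of a member, with 1554 genes called in all.

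Members with changed signs were all among those that did not pass, and the cause was not tested. After GC correction PMVK was at −0.14, INSIG1 at 0.0024, SREBF1 at −0.040, STARD4 at 0.044, FADS2 at −0.185 and ACSS2 at −0.17. With the replicate block and GC correction they were at −0.18, 0.0053, −0.0425, 0.051, −0.185 and −0.17. With GC and length correction they were at −0.074, 0.0425, −0.058, 0.029, −0.22 and −0.13, with ACACA at −0.055 and ELOVL5 at 0.027. INSIG1 was at 0.0090 with library size alone. With 1 library left out MVK ranged from −0.19 to 0.66, PMVK from −0.42 to 0.51, INSIG1 from −0.15 to 0.10, STARD4 from −0.62 to 0.017, ELOVL1 from −0.18 to 0.094, ELOVL6 from −0.14 to 0.23, FADS2 from −0.11 to 0.24 and ACSS2 from −0.10 to 0.15. Depth was lowest for MVK and MVD, with 20 to 59 counts per library and SEs of 0.39 and 0.38.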
